A study of Mus musculus with 6 samples.

Results

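Cadherins and protocadherins, the calcium-dependent adhesion proteins that let cells recognise and hold on to one another, were compared between mouse neurospheres labelled ACVR1 G328V and ACVR1 WT. All genes with the symbol Cdh plus a number or beginning with Pcdh were taken, 90 from the table of HTSeq counts and 3 clustered members, Pcdha1, Pcdha4 and Pcdha4-g, listed only in the table of Cufflinks estimated counts. The 93 members comprised 22 cadherins, 12 non-clustered protocadherins and 59 clustered protocadherins, set against 17551 genes in the first table and 23107 in the second.

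RNA-seq was performed on 6 libraries of mouse neurospheres, all on a C57BL/6 background. Neurospheres are floating cultures, here in medium with EGF and FGF, meant to grow neural stem and progenitor cells. The 3 G328V libraries, replicates 1, 2 and 3, are labelled ACVR1 G328V by genotype. Replicates 1, 3 and 70A of WT are labelled ACVR1 WT. Values are given in that order of replicates. ACVR1 is a receptor for bone morphogenetic proteins, and the G328V label stands for valine in place of a glycine. The locus and promoter that carry the change and any other allele that both groups share are not stated in the labels. Nor are the animals or cultures behind each replicate. P-values therefore measure only the spread between these samples, and how far it stands for a spread between animals is not known.

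Classical cadherins bind the same cadherin on the neighbouring cell and are tied to actin inside the cell by catenins. In neural tissue the type I member Cdh2, N-cadherin, holds progenitors together at adherens junctions, and type II members such as Cdh6 mark territories and nuclei. Non-clustered protocadherins, the delta-1 and delta-2 families among them, adhere more weakly and act partly through the cytoskeleton. The clustered protocadherins lie as the alpha, beta and gamma arrays on mouse chromosome 18. In the alpha and gamma arrays each variable first exon has its own promoter and is spliced to shared constant exons, so that neurons can display different combinations on the cell surface, while the beta genes are single exons.

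The HTSeq totals were 115953495 to 191115532 counts per library, so that 3 counts, taken as the floor, correspond to 0.0157 to 0.0259 CPM, the count scaled to the size of its library. The 90 members in that table held 0.123% to 0.419% of its counts. Sox2 at 134 to 237 CPM and Vim at 1718 to 3189 CPM, both markers of neural progenitors, were present in every library. The other listed progenitor markers were less even. Nes ran from 91.2 to 963 CPM, Prom1 from 7.92 to 288 CPM, Msi1 from 0.716 to 40.6 CPM and Fabp7 from 0.182 to 1313 CPM. Msi1 and Fabp7 were lowest in WT replicate 3 and highest in WT replicate 1. WT replicate 1 stood apart, with Olig1 at 614.9 CPM and Olig2 at 416 CPM, which mark the oligodendrocyte lineage, against at most 1.07 and 0.938 CPM in the other 5 libraries. The other listed markers of that lineage were not high there. In WT replicate 1 Pdgfra was at 9.65 CPM, its lowest level in any library, Cspg4 at 3.28 CPM and Sox10 at 0.0569 CPM. G328V replicate 1 stood apart by Sox10 at 65.2 CPM, a marker of glia and neural crest. Xist, which is transcribed from an inactive X chromosome, ran from 443.5 to 795.2 CPM among the G328V libraries and did not exceed 1.18 CPM in any WT library. Ddx3y, a Y-linked gene, was at most 0.0326 CPM in the G328V libraries and 17.7 to 50.98 CPM in the WT libraries. Both sex-linked genes separated the groups completely, so for every member, autosomal ones included, genotype and whatever sets Xist and Ddx3y cannot be told apart. In such bulk cultures, fewer cells that express a gene and less RNA per cell cannot be told apart either.

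Of the members, 16 of 22 cadherins, all 12 non-clustered and 49 of 59 clustered protocadherins passed the filter on low counts and were tested with edgeR. None passed a false discovery rate (FDR) of 0.05, in a comparison where 0 of 14643 genes did (0%). Of all HTSeq genes, 594 (4.06%) had an unadjusted edgeR p under 0.05, 1.88% higher and 2.17% lower in G328V, and DESeq2, run as an alternative, called 173 genes (1.05% of those it tested, 0.569% higher and 0.478% lower). Limma-voom, another alternative, called 0 genes. Adjusted p was 0.997 by edgeR for every tested cadherin and non-clustered protocadherin. DESeq2 called 1 of these, Pcdh8, and 1 clustered member, Pcdhgb6, both lower in G328V. The members varied widely within a genotype, as the heat map of cadherin and non-clustered protocadherin levels shows. The highest library held at least 10 times the median library in 4 of 16 tested cadherins (25%) and 6 of 12 non-clustered protocadherins (50%), against 1279 of all 14643 tested genes (8.73%).

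**Figure D1:**
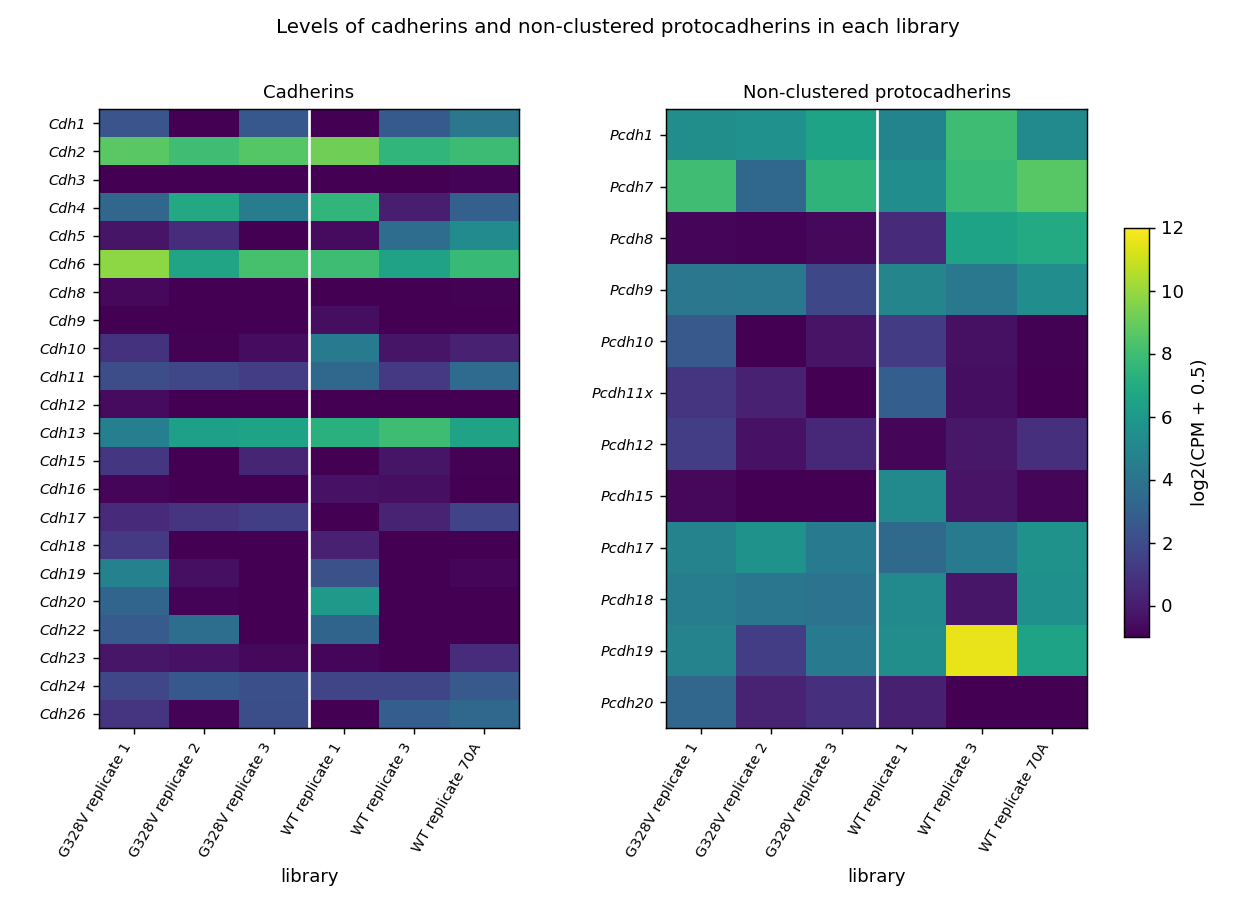
Level of each cadherin (left) and non-clustered protocadherin (right) in each of the 6 libraries, as log2(CPM + 0.5) on the colour scale, with a white line between the 3 G328V and the 3 WT libraries. Cdh2, Cdh6 and Cdh13 are high in all 6 libraries, Pcdh8 is low in all 3 G328V libraries, and Pcdh19 peaks at 3040 CPM in WT replicate 3.

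No cadherin separated the genotypes. Among the 16 tested, 7 had positive and 9 negative log2 differences (G328V minus WT), none had an unadjusted edgeR p under 0.05 and in none did the groups fail to overlap, against 9.7% of all genes. The median log2 difference was -0.57, against -0.00 over all genes, and it was 0.17 under limma-voom. The 6 cadherins that were not tested were Cdh3, Cdh8, Cdh9, Cdh12, Cdh18 and Cdh20.

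Cdh2 was the most abundant cadherin per length, at a mean of 68.7 CPM per kb of exon over the 6 libraries, ahead of Cdh6 at 37.3 and Cdh13 at 30.5 CPM per kb. Cdh2 was at 407, 254 and 384 CPM in G328V, against 571, 186 and 241 CPM in WT. The G328V values lay inside the WT range, with means of 348 ± 82.2 CPM (SD, n = 3) and 333 ± 208 CPM (SD, n = 3). Its log2 difference was 0.07 (standard error 0.48). N-cadherin RNA differed more among the WT libraries than between the group means.

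The other type I cadherins were lower and uneven. Cdh4, R-cadherin, was at 9.30, 114 and 22.3 CPM in G328V, against 190, 0.574 and 7.44 CPM in WT. G328V replicate 2 and WT replicate 1 were the high libraries, 1 from each genotype, and the log2 difference was -0.44 (standard error 1.84). It was 3.56 without WT replicate 1. Cdh1, E-cadherin of epithelia, was at 4.93, 0 and 5.45 CPM in G328V, against 0, 5.92 and 17.5 CPM in WT. The 2 libraries with no Cdh1 count, G328V replicate 2 and WT replicate 1, were also those with the lowest summed level of the 4 epithelial markers, 0.224 and 0.601 CPM against 11.3 to 294 CPM in the rest. Of these markers Epcam was at 0 to 3.68 CPM and Krt8 at 0.0109 to 2.79 CPM, while Krt18 reached 214.5 CPM and Krt19 198.3 CPM. WT replicate 70A, the library highest in Cdh1, had a summed level of 22.5 CPM. The part of epithelial cells in the Cdh1 values was not tested. Cdh15, M-cadherin of muscle, had mean levels of 0.767 ± 0.775 (G328V) and 0.121 ± 0.181 CPM (WT; SD, n = 3), and Cdh3 was at 0 counts in 5 of 6 libraries.

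Cdh6 led the type II cadherins. It was at 879, 95.4 and 298 CPM in G328V, against 249, 90.3 and 216 CPM in WT. G328V replicates 1 and 3 lay above the WT range and G328V replicate 2 inside it. On the log2 scale it differed by 1.20 (standard error 0.82), and by 0.09 without G328V replicate 1.

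Cdh5, VE-cadherin, best known from endothelial junctions, had the largest difference by size of the 16 tested cadherins. It was at 0.344, 1.09 and 0.0163 CPM in G328V, against 0.154, 12.1 and 38.7 CPM in WT. WT replicates 3 and 70A were high, and WT replicate 1 was within the G328V range. The log2 difference was -5.14 (standard error 2.16), and DESeq2 gave an adjusted p of 0.108. Of the 4 endothelial markers 3 were listed, and their summed level was 1.51 to 19.3 CPM across G328V libraries and 0.787 to 10.8 CPM across WT libraries. WT replicate 70A, the library highest in Cdh5, had the lowest summed level, and Pecam1, which defines endothelium, was at most 0.972 CPM in any library. The part of endothelial cells in the Cdh5 values was not tested.

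Further type II cadherins were high in only 1 or 2 libraries. Cdh20 was at 8.79, 0.0498 and 0 CPM in G328V, against 66.0, 0.00568 and 0.0115 CPM in WT, so that replicate 1 of each genotype was high. Cdh10 reached 20.6 CPM in WT replicate 1 and lay at 0.0332 to 1.35 CPM in the others. Cdh19, a cadherin of neural crest and glial precursors, was at 26.0 CPM in G328V replicate 1 and 4.18 CPM in WT replicate 1, and did not pass 0.216 CPM elsewhere. These are the libraries that stood apart by Sox10 and by Olig1 and Olig2, and the part of glial cells in these values was not tested. The summed level of the 5 oligodendrocyte lineage markers, Sox10 among them, was 13.6 to 231.4 CPM across G328V libraries and 50 to 1044 CPM across WT libraries. The log2 difference of Cdh19 was 2.63 (standard error 3.09), and -3.67 without G328V replicate 1.

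Cdh11, a mesenchymal type II cadherin, was at 3.78, 2.87 and 2.08 CPM in G328V, against 10.1, 1.70 and 11.1 CPM in WT. WT replicate 3 was the lowest of all 6 libraries, so the groups overlapped (log2 difference -1.39, standard error 0.83). Cdh24 was the most even cadherin of the class at 2.78 to 5.66 CPM in all 6 libraries. Cdh22 reached 6.05 CPM in G328V replicate 1, 12.6 CPM in G328V replicate 2 and 8.51 CPM in WT replicate 1, and no more than 0.00574 CPM in the rest. Cdh8, Cdh9, Cdh12 and Cdh18 did not exceed 1.72 CPM in any library.

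Cdh13, T-cadherin, which is anchored to the membrane by a lipid and lacks the cytoplasmic tail, led the members outside types I and II. It was at 24.0, 81.2 and 93.2 CPM in G328V, against 154, 251 and 88.9 CPM in WT. All 3 WT values exceeded those of G328V replicates 1 and 2, while WT replicate 70A lay below G328V replicate 3. Its log2 difference was -1.32 (standard error 0.61). Cdh26 was at 1.52, 0.0498 and 3.92 CPM in G328V, against 0, 6.84 and 9.77 CPM in WT, with overlapping groups. Cdh17 was at 0.00813 to 2.60 CPM, Cdh16 at most at 0.284 CPM and Cdh23, a tip-link protein of hair cells, at most at 1.09 CPM, and the groups overlapped in all 3.

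**Figure D2:**
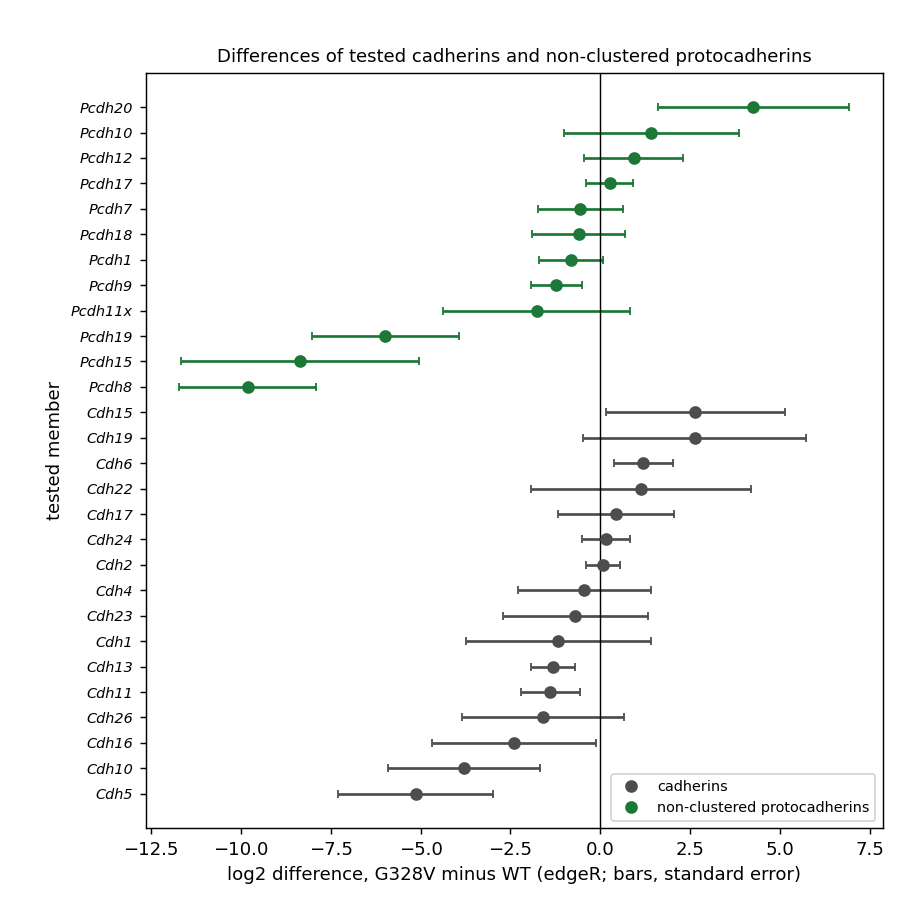
Log2 difference (G328V minus WT, edgeR) on the horizontal axis for the 16 tested cadherins (grey) and the 12 tested non-clustered protocadherins (green), with bars for the standard error. Pcdh8 lies farthest from 0 at -9.81, and Cdh2 at 0.07, Cdh24 at 0.15 and Pcdh17 at 0.27 lie nearest to it.

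Among the non-clustered protocadherins, Pcdh8 and Pcdh19 were lower and Pcdh20 higher in every G328V library than in any WT library. All 12 members were tested, 4 had positive and 8 negative differences, and the median was -0.71. The unadjusted edgeR p was under 0.05 for Pcdh8, Pcdh19 and Pcdh15, all 3 lower in G328V, against 2.17% of all genes in that direction. The groups of Pcdh15 overlapped. The groups did not overlap in 4 members, 3 lower (Pcdh8, Pcdh19 and Pcdh9; 4.45% of all genes) and 1 higher (Pcdh20; 5.25%). With total-count scaling the groups did not overlap in 3 members, against 10.8% of all genes. The median was -0.10 under limma-voom.

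Pcdh8, a delta-2 protocadherin also known as arcadlin and paraxial protocadherin, had no more than 20 counts in any of the 3 G328V libraries. It lies on chromosome 14 from 79766775 to 79771312 (GRCm38, minus strand). The G328V levels were 0.0874, 0.0415 and 0.109 CPM, from 15, 5 and 20 counts. The WT levels were 1.04, 92.3 and 125 CPM, from 128, 16247 and 21708 counts. Every WT value exceeded every G328V value, but WT replicate 1 lay far nearer to G328V than to the other WT libraries. Its G328V mean was 0.0792 ± 0.0344 CPM and its WT mean 72.7 ± 64.1 CPM (SD, n = 3). On the log2 scale it differed by -9.81 with a standard error of 1.91. By edgeR's p it ranked 16 among all genes, with an adjusted p of 0.997. DESeq2 called it with a log2 difference of -9.85 and an adjusted p of 5.10e-11, rank 8, and called it in each of the 6 fits that left out 1 library. Over 15 alternative settings, those 6 fits not among them, its difference ran from -10.40 to -6.69, and its adjusted p from 5.10e-11 to 1.

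Pcdh19, an X-linked delta-2 protocadherin that pairs with N-cadherin, varied widely between libraries. It was at 27.4, 2.11 and 20.5 CPM in G328V, against 42.0, 3040 and 93.9 CPM in WT. WT replicate 3 stood out: there Pcdh19 was the gene with rank 10 in abundance and took 0.28% of all counts. The lowest WT value still exceeded the highest G328V value. The log2 difference was -5.99 (standard error 2.04), and -2.04 without WT replicate 3. DESeq2 gave no adjusted p for it. HTSeq counts per Cufflinks fragment were 1.83 to 1.99 for Pcdh19 in the 6 libraries, near the median of 1.95 to 1.96 over the 8924 genes with at least 500 counts in every library, so the peak was present in both tables. Xist and Ddx3y separated the same groups, and the part of sex-linked expression in Pcdh19 was not tested.

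Pcdh9, a delta-1 protocadherin, was at 17.2, 17.9 and 3.01 CPM in G328V, against 30.2, 18.03 and 40.9 CPM in WT. G328V replicate 2 and WT replicate 3 were nearly equal, so the groups were apart by a narrow margin (log2 difference -1.22, standard error 0.71). Under total-count scaling the groups of Pcdh9 overlapped. Pcdh20, which falls outside the delta families, ran the other way at 9.34, 0.723 and 1.17 CPM in G328V, against 0.585, 0 and 0 CPM in WT. G328V replicate 1 was the highest, and the margin between G328V replicate 2 and WT replicate 1 was narrow. The log2 difference of 4.26 had a standard error of 2.66, and it was 2.28 without G328V replicate 1.

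**Figure D3:**
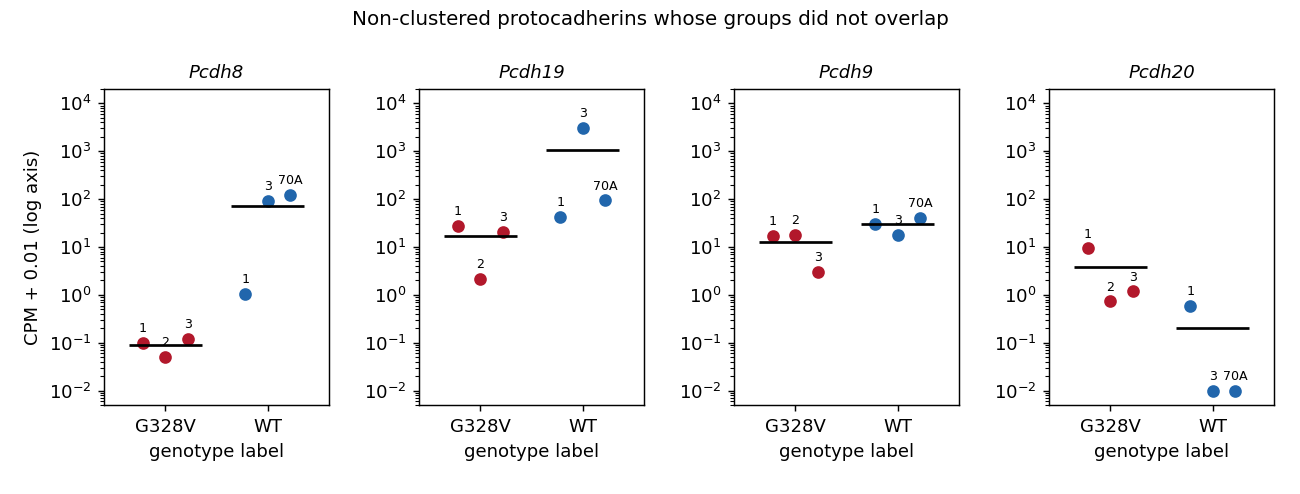
Level of Pcdh8, Pcdh19, Pcdh9 and Pcdh20 in each library (points, labelled by replicate; red, G328V; blue, WT) as CPM + 0.01 on a log axis, with a line at the mean of each group of 3. The Pcdh8 gap is widest between WT replicates 3 and 70A, at 92.3 and 125 CPM, and the G328V libraries at 0.0415 to 0.109 CPM.

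The promoters of these 4 genes are printed because they are the non-clustered members whose groups did not overlap. Each is the 250 bases before the RefSeq start (GRCm38.p6), written 5′ to 3′ on the minus strand, which all 4 genes use. They lie at chr14:79771313-79771562 for Pcdh8, chrX:133688994-133689243 for Pcdh19, chr14:93890680-93890929 for Pcdh9 and chr14:88471397-88471646 for Pcdh20. Capitals mark CCAAT, or ATTGG where it lies on the other strand, and TATAAA.
Pcdh8: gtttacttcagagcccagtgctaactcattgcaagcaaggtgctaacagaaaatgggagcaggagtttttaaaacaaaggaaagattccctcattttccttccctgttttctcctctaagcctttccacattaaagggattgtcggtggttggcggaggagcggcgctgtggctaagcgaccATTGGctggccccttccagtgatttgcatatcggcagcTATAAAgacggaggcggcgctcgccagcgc
Pcdh19: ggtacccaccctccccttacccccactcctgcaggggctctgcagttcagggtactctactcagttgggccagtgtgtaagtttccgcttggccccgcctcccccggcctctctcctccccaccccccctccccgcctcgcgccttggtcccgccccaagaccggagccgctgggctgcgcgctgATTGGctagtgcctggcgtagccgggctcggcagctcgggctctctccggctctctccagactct
Pcdh9: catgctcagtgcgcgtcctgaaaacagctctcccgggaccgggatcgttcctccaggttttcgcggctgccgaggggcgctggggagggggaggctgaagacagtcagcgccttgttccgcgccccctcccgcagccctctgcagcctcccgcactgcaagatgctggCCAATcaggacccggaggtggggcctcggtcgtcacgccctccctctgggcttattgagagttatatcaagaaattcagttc
Pcdh20: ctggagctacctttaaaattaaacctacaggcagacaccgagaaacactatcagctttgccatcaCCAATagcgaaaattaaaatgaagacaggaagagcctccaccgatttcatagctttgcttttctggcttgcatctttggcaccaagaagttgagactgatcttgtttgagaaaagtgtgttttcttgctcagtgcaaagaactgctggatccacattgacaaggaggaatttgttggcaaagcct
Each window held 1 CCAAT box, at 68 bases upstream of the start in Pcdh8, 65 in Pcdh19, 82 in Pcdh9 and 185 in Pcdh20. Pcdh8 alone of the 4 held TATAAA, at 30 bases upstream. Searched on both strands, CCAAT occurred in 33.8% of 32851 RefSeq promoter windows of this length and in 13 of the 21 members with a window (61.9%), and TATAAA in 12.4% and in 2 of 21. CCAAT and TATAAA were chosen after the windows were seen. The word GGCGCC (9.59% of windows) and the E-box CACCTG (17.2%) were in none of the 4, which says only that these letters are not in these windows.

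The remaining delta-2 members did not separate the groups. Pcdh17 was at 27.2, 50.4 and 20.7 CPM in G328V, against 10.9, 19.7 and 51.2 CPM in WT, with a log2 difference of 0.27 and a standard error of 0.65. Pcdh18 was at 14.8 to 22.4 CPM in the 3 G328V libraries and at 35.9, 0.375 and 44.97 CPM in WT. WT replicate 3, the library of the Pcdh19 peak, was thus the only one nearly without Pcdh18. Pcdh10 did not exceed 5.72 CPM in any library.

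All 4 delta-1 members had negative differences, with a median of -1.02, but 3 of these signs turned when 1 library was left out: Pcdh7 was 0.21 without WT replicate 70A, Pcdh1 0.84 without WT replicate 3 and Pcdh11x 2.76 without WT replicate 1. Only the groups of Pcdh9 did not overlap. Pcdh7 was at 261, 10.1 and 173 CPM in G328V, against 40.5, 216 and 394 CPM in WT. The low libraries, G328V replicate 2 and WT replicate 1, came from both genotypes (log2 difference -0.55, standard error 1.19). Pcdh1 was at 42.5, 46.6 and 91.4 CPM in G328V, against 29.0, 251 and 37.4 CPM in WT. WT replicate 3 lay above the G328V range and the other WT libraries below it, and the log2 difference was -0.81 (standard error 0.89). Pcdh11x, the other X-linked member, did not exceed 6.94 CPM, and its log2 difference of -1.77 (standard error 2.61) was 0.41 with limma-voom.

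Pcdh15, the partner of Cdh23 in the tip link, was at 0.105, 0 and 0 CPM in G328V, against 35.4, 0.296 and 0.0804 CPM in WT. WT replicate 1 was far above the rest. Its log2 difference of -8.36 had a standard error of 3.32, and it was -2.39 without WT replicate 1, the library high in Olig1 and Olig2. The groups overlapped, and the part of oligodendrocyte-lineage cells was not tested. Pcdh12, a protocadherin of endothelium and placenta, was at 0.0650 to 2.04 CPM. Per length, Pcdh19 at 52.3 CPM per kb had the highest mean of the class, but it ran from 0.205 to 295 CPM per kb, ahead of Pcdh7 at 17.3, Pcdh1 at 9.44 and Pcdh8 at 9.10 CPM per kb.

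The clustered protocadherins were read from the Cufflinks table, whose values are estimated fragments. The HTSeq table held close to 2 counts per fragment at the median of well-covered genes, but 1.11 to 1.16 for the summed gamma array and 0.333 to 1.32 for the alpha array, whose members share exons. The value of 0.333 is from WT replicate 3, where the alpha array held 1 HTSeq count and 3 estimated fragments. Of the 49 tested, 8 alpha, 19 beta and 22 gamma, none passed edgeR's FDR (adjusted p from 0.995 to 0.998), as for 0 of 14878 genes. An unadjusted edgeR p under 0.05 was found for 5, all gamma and all lower in G328V, against 4.12% of all Cufflinks genes and 2.17% in that direction. The groups did not overlap in 5, also gamma and lower, against 9.82% of all genes, 4.59% lower and 5.23% higher. In the HTSeq counts the groups did not overlap in 4 gamma members that were lower and in 1, Pcdhga8, that was higher. DESeq2 called 1 member lower, against 1.1% of all genes, 0.532% lower and 0.571% higher.

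The arrays differed in how far the libraries spread. Summed over its members, the gamma array was at 337.1, 550.8 and 429 CPM in G328V, against 756.7, 607.5 and 697.6 CPM in WT. Every WT sum exceeded every G328V sum, with means of 439 ± 107 and 687 ± 75.1 CPM (SD, n = 3). Its log2 difference was -0.67, and the exact two-sided permutation p of 0.1, the smallest that 3 against 3 allows, became 0.3 after Benjamini-Hochberg adjustment over the 3 arrays. The highest gamma sum was 2.25 times the lowest. Most of each sum was 1 isoform, Pcdhgc3, at 238 to 561 CPM. The 19 variable isoforms together held 92.7, 122.7 and 71.9 CPM in G328V, against 164.8, 125.7 and 212.3 CPM in WT.

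The alpha sum was at 45.4, 109.7 and 5.95 CPM in G328V, against 48.3, 0.0329 and 1.67 CPM in WT. The groups overlapped (log2 difference 3.06, exact permutation p = 0.3, adjusted 0.45). The libraries spanned 3336-fold, a ratio that rests on WT replicate 3, where the array held 3 estimated fragments, all of Pcdha3. The beta sum was at 8.88, 93.9 and 1.39 CPM in G328V, against 245.9, 0.811 and 23.9 CPM in WT, a 303-fold span (log2 difference -0.74, exact permutation p = 0.8, adjusted 0.8). Without WT replicate 1 the beta difference was 1.05. WT replicate 3 was the lowest library in both arrays, and G328V replicate 3 the lowest of its group, while the same libraries held 607.5 and 429 CPM of gamma RNA.

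**Figure D4:**
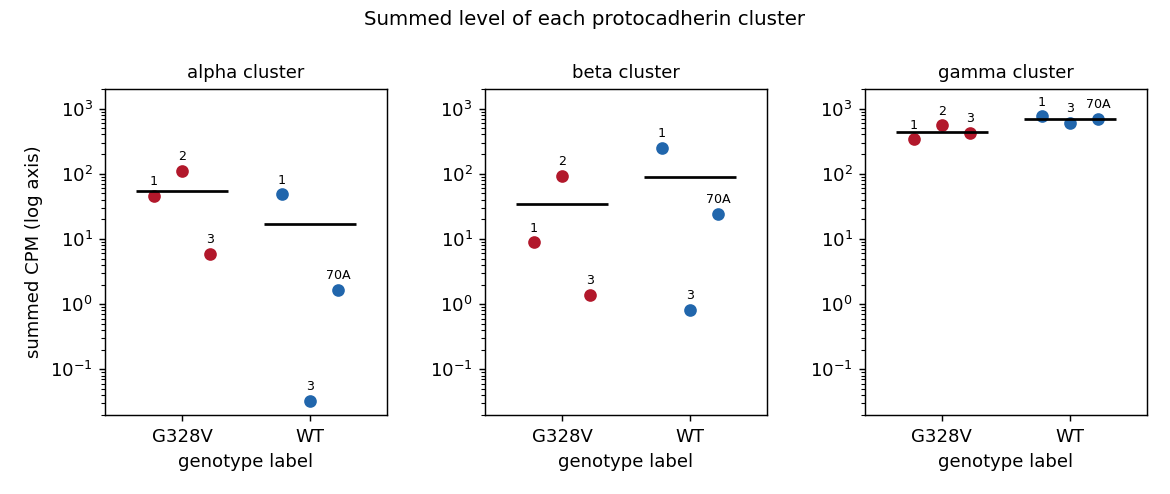
Summed CPM of the alpha, beta and gamma arrays in each library (points, labelled by replicate; red, G328V; blue, WT) on a log axis, with a line at the mean of each group of 3. The gamma sums lie within 2.25-fold of one another with every WT library above every G328V library, while the alpha and beta sums span 3336-fold and 303-fold. The lowest alpha sum, in WT replicate 3, rests on 3 estimated fragments.

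In the alpha array Pcdhac2, a C-type isoform, was the most abundant member. It was at 39.1, 64.8 and 5.14 CPM in G328V, against 10.03, 0 and 1.19 CPM in WT. G328V replicate 3 lay below WT replicate 1, so the groups overlapped (log2 difference 3.28, standard error 2.05). Of the 12 variable alpha isoforms, 1, 5 and 0 reached 1 CPM in the G328V libraries, and 6, 0 and 0 did in WT. Pcdha11 was the leading variable isoform of G328V replicates 1 and 2, with 2.36 and 22.4 CPM. Pcdha7 led in WT replicate 1 at 14.0 CPM, and was at most 0.634 CPM in any other library. The median difference of the 8 tested alpha members was 2.01, but -0.83 with no filter on low counts and -1.57 without G328V replicate 2.

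The number of beta genes detected varied within both genotypes. In WT replicate 1 all 22 reached 1 CPM, in G328V replicate 2 14 did, in WT replicate 70A 7, in G328V replicate 1 3, and in G328V replicate 3 and WT replicate 3 none. Pcdhb16, the most abundant, was at 2.23, 24.4 and 0 CPM in G328V, against 32.3, 0 and 5.64 CPM in WT. Pcdhb17 was highest in G328V replicate 2 at 17.0 CPM and Pcdhb2 in WT replicate 1 at 27.5 CPM. WT replicate 1 was the highest library for 17 of the 19 tested beta genes. Negative differences were found for 17 of the 19, with a median of -1.65, and without WT replicate 1 the median was 1.61. No beta gene separated the groups.

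The gamma array was led by Pcdhgc3, a C-type isoform, which was present in every library. It was at 238, 424 and 313 CPM in G328V, against 561, 433 and 425 CPM in WT. The groups were apart only by the margin between 424 and 425 CPM, and they overlapped in the HTSeq counts. On the log2 scale it differed by -0.54 with a standard error of 0.29. At 85.1 CPM per kb Pcdhgc3 was more abundant per length, on the Cufflinks scale, than any other clustered member.

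The other C-type gamma isoforms were less abundant. Pcdhgc4, which has been tied to neuronal survival, was at 1.71, 2.57 and 4.51 CPM in G328V, against 15.0, 6.35 and 8.95 CPM in WT. All 3 WT values were higher than all 3 G328V values (log2 difference -1.79, standard error 0.63). Pcdhgc5 was at 4.77, 1.38 and 39.8 CPM in G328V, against 15.5, 42.7 and 51.4 CPM in WT. G328V replicate 3 lay inside the WT range, and the log2 difference was -1.25 (standard error 1.20), -3.57 without G328V replicate 3 and -0.71 without G328V replicate 2. Over the 22 gamma members 8 differences were positive and 14 negative, with a median of -0.91, and 0.16 without WT replicate 70A, against -0.01 over all Cufflinks genes.

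Among the 19 variable gamma isoforms the 4 with the smallest p were Pcdhgb6, Pcdhga10, Pcdhgb7 and Pcdhga11, whose first exons follow one another on the chromosome. Pcdhgb7 was at 0.828, 0.393 and 0.701 CPM in G328V, against 4.23, 3.56 and 42.4 CPM in WT. Every WT value was above every G328V value, and WT replicate 70A was the highest. The log2 difference was -4.70 (standard error 1.22) and -2.60 without WT replicate 70A. DESeq2 gave no adjusted p in the fit of all 6 libraries, and called it lower in each of the 6 fits that left out 1.

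Pcdhgb6 was at 0.641, 1.80 and 4.79 CPM in G328V, against 5.98, 52.0 and 26.6 CPM in WT. G328V replicate 3 and WT replicate 1 were close, and the groups did not overlap. Its log2 difference was -3.54 (standard error 1.07). DESeq2 called it with an adjusted p of 0.0353. That call was lost on leaving out replicate 1 or 2 of G328V or replicate 3 or 70A of WT.

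Pcdhga11 was at 0.600, 1.05 and 0.674 CPM in G328V, against 2.62, 2.38 and 42.6 CPM in WT. The groups did not overlap, and the highest library was WT replicate 70A. On the log2 scale it differed by -4.35 (standard error 1.36) and -1.70 without that library. Pcdhga10 was at 2.08, 4.45 and 0.732 CPM in G328V, against 68.5, 52.3 and 0.762 CPM in WT. Here WT replicate 70A was low and lay inside the G328V range (log2 difference -4.07, standard error 1.53).

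The leading variable gamma isoforms differed between libraries of 1 genotype. Pcdhgb4 took 34.6% and 49.4% of the summed variable isoforms in G328V replicates 1 and 3, and Pcdhga7 took 35.1% in G328V replicate 2. Pcdhga10 took 41.6% in WT replicate 1 and again 41.6% in WT replicate 3, where Pcdhgb6 took 41.4%. In WT replicate 70A Pcdhga11 and Pcdhgb7 took 20.0% each. The 3 leading isoforms together made up 54.4% to 85.8%. Across the 19 isoforms, which share constant exons, Pearson's r between libraries was -0.271 to 0.329 within G328V, 0.005 to 0.718 within WT and -0.239 to 0.118 between genotypes, as a description. The highest pair was WT replicates 1 and 3 at 0.718.

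**Figure D5:**
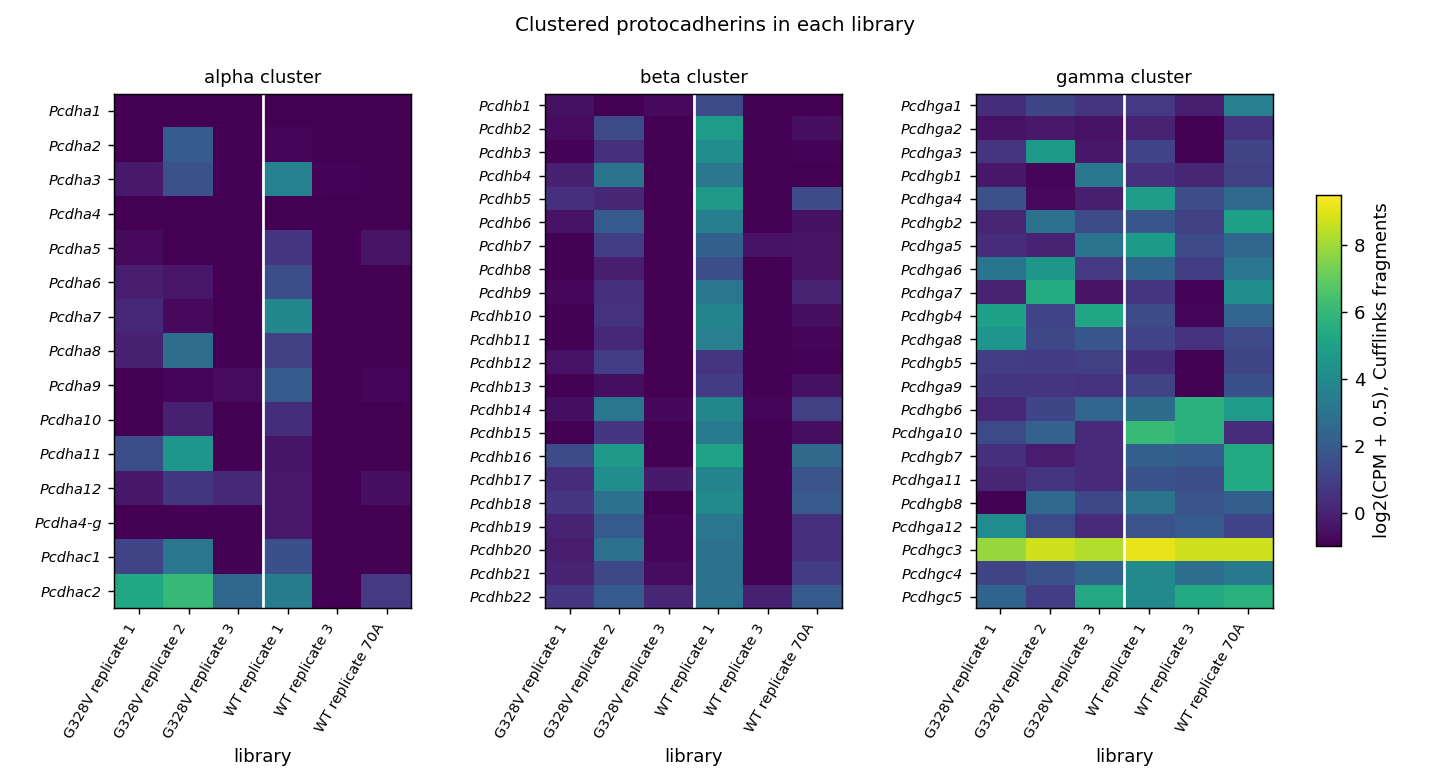
Level of each clustered protocadherin in each library, as log2(CPM + 0.5) of Cufflinks fragments on the colour scale, in 3 panels for the alpha, beta and gamma arrays (gamma in chromosome order), with a white line between the 3 G328V and the 3 WT libraries. Pcdhgc3 is high in all 6 libraries, the beta genes are detected together in WT replicate 1 and G328V replicate 2, and the leading variable gamma isoforms differ between libraries.

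None of the listed genes that work with the cadherins was called by edgeR or DESeq2. Of 10 tested catenins and junction adaptors, 9 had negative differences, with a median of -0.53, and 1 had an unadjusted edgeR p under 0.05, against 4.06% of all genes and 2.17% in its direction. That gene was Ctnnd1, a catenin that holds cadherins at the surface, at 222, 366 and 210 CPM in G328V, against 374, 529 and 471 CPM in WT. Every WT value was higher, as for 4.45% of all genes (log2 difference -0.78, standard error 0.31, adjusted p = 0.997). Ctnna1, alpha-catenin, differed by -0.37 (standard error 0.26), and Ctnnd2 was at 184.5 CPM in WT replicate 1 against at most 9.91 CPM elsewhere.

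Of 14 tested atypical and desmosomal cadherins, 6 had positive and 8 negative differences, with a median of -0.16. Celsr1, a planar polarity cadherin, was at 5.09, 43.2 and 0.696 CPM in G328V and 0.756 to 1.42 CPM in WT, with overlapping groups and a log2 difference of 3.96 (standard error 1.47). Dchs1, a partner of Fat4, was at 442.6 CPM in WT replicate 1 and 0.636 to 69.4 CPM in the others, and Dsc2, a desmosomal cadherin, at most at 4.55 CPM.

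Regulators of the clustered arrays varied less than the alpha and beta sums. Ctcf, the architectural protein that brings enhancers to the variable promoters, was at 80.9 to 119 CPM, and Smchd1, a silencer of the arrays, at 173 to 268 CPM. Dnmt3b, which methylates variable promoters, was at 2.40, 1.66 and 1.65 CPM in G328V, against 1.96, 0.364 and 2.84 CPM in WT, lowest in WT replicate 3. Among the 16 tested regulators 13 had positive differences, with a median of 0.11. Nipbl, Smchd1 and Setdb1 had log2 differences of 0.35, 0.26 and 0.25, and none of the 16 had an unadjusted edgeR p under 0.05.

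No member of the other 3 lists had an unadjusted edgeR p under 0.05. For 15 cytoskeletal and kinase partners of protocadherins the median was -0.11, and Wasf2 and Cyfip2 differed by -0.59 and 1.86. For 9 proteases that cut cadherins the median was 0.10, with differences of 0.73 for Psen2 and 0.25 for Aph1a. Mmp2 reached 810.5 CPM in G328V replicate 1 and stayed between 0.284 and 18.4 CPM elsewhere. For 8 repressors of cadherin genes the median was 0.07, and Tcf3, Zeb1 and Twist1 differed by -0.52, -0.73 and 0.41.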

How the data were processed

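Per the labels' protocols, total RNA was extracted with a column kit, depleted of ribosomal RNA and sequenced as paired ends from stranded libraries, and both a TruSeq and a Pico kit are named. The submitters' processing notes name mm10, FastQC 0.11.3, TopHat2 2.0.13 and Bowtie2 2.2.1. No source used here says how reads were counted, with which annotation or whether by strand. Overlapping genes and the clustered members, which share exons, are therefore uncertain. The authors deposited whole-number HTSeq counts per gene symbol and a second table of Cufflinks estimated counts of fragments, neither normalized, and 0 rows named no gene. Paired reads gave close to 2 counts per fragment, so counts are not independent molecules.

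Groups follow the genotype in the labels. The HTSeq counts went into edgeR 4.0.16 under R 4.3.3 (legacy quasi-likelihood F-test, robust, TMM, filterByExpr with a minimum count of 10), adjusted by Benjamini-Hochberg over all 14643 genes. Estimated counts were rounded and tested likewise for the clustered members. CPM values use TMM-scaled library sizes. The standard error of an edgeR difference was taken as its size divided by the square root of the F statistic. It is approximate, and for members high in only 1 or 2 libraries the uncertainty need not be symmetric. DESeq2 1.42.0, in which an adjusted p left as NA stayed NA (1030 genes), and limma 3.58.1 (voom) were alternatives, with other scalings, filters, tables and each library left out. The array sums were compared by an exact permutation test on log2(CPM + 0.5). No 2 libraries were close to duplicates (smallest chi-square per degree of freedom 1290). Exon lengths come from GENCODE M21 (GRCm38), with 1 gene model for 90 of 93 members, and promoters from RefSeq, found for 21.

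The members and gene lists were chosen with earlier results of these data known. Every tested cadherin and non-clustered protocadherin was named. Values in every library were given for members averaging at least 1 CPM in a group whose groups did not overlap, whose unadjusted p was under 0.05 or which a tool called, and for the 6 cadherins and 4 non-clustered protocadherins highest in CPM. For each array the 3 most abundant members and those whose groups did not overlap were named, and up to 3 genes of each partner list by p. A gene that this rule names and a marker list are not reported here. Further members were named after their values were seen. The replicate numbers were not taken as pairs.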

Additional observations from a re-analysis of the deposited data

How the results depend on the processing

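Of 602 values of the 41 named members under alternative settings, 563 kept their direction and 39 reversed, and 2 were called, Pcdh8 and Pcdhgb6 by DESeq2. Total-count scaling moved the median of all genes to 0.12 (log2).

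DESeq2 called 173 genes where edgeR called 0, 1 of them a non-clustered protocadherin, and 1 clustered protocadherin in the Cufflinks table. With each library left out, edgeR called 0 HTSeq genes and 0 members. DESeq2, a check added after seeing the data, called 283, 405 and 329 of the 17551 listed HTSeq genes without G328V replicates 1, 2 and 3. It called 727, 272 and 374 without WT replicates 1, 3 and 70A. Those fits called 0 to 3 of the 22 cadherins and 1 to 3 of the 12 non-clustered protocadherins. The number of genes with an adjusted p was not counted for them. The Cufflinks fits called 2 to 7 of the 59 clustered protocadherins. Each maximum came without WT replicate 1 (for the non-clustered also without WT replicate 70A). All-gene calls were not counted for these Cufflinks fits, so no share over all genes stands beside the clustered calls. The member calls included, as lower in G328V, Cdh5 without G328V replicate 2 or WT replicate 1 and Cdh11 without WT replicate 3. They also included, as lower, Pcdh19 without WT replicate 1 or 70A and Pcdh15 without WT replicate 70A. Without WT replicate 1, Cdh22 and Pcdh20 were called higher, with log2 differences of 11.08 and 11.80. The remaining WT libraries held at most 1 count of either gene. Cdh18 was called lower without G328V replicate 1 and higher without WT replicate 1, and its fitted values rest on libraries at 0 counts. Groups did not overlap for 1 cadherin in the Cufflinks counts. With 1 library left out, which leaves fewer values to overlap, they did not overlap for 1 to 5 cadherins and 4 to 6 non-clustered protocadherins, against 16.8% to 23.4% of all HTSeq genes under the same settings, and for 7 to 12 clustered protocadherins, against 16.9% to 23.9% of all Cufflinks genes.

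The median difference of the cadherins was 0.17 with limma-voom and -1.01 to 0.054 with 1 library left out. For the non-clustered protocadherins it was -0.10 with limma-voom and -1.37 to -0.48. The alpha median was -0.83 with no filter on low counts and ran from -1.57 to 7.21 with 1 library left out, the beta median from -3.99 to 1.61 and the gamma median from -1.23 to 0.16, the last positive without WT replicate 70A. The summed arrays ran from 1.62 to 4.87 (alpha), -2.72 to 1.05 (beta) and -0.85 to -0.49 (gamma).

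The replicate numbers 1 and 3 occur in both groups. Deviations of same-numbered libraries correlated at 0.169 and 0.247, and with 2 shared numbers these were not taken as pairs. A fit with the replicate number as a block called 0 genes and gave medians of 0.37 for cadherins, 0.12 for non-clustered, -0.43 for alpha, -3.89 for beta and -0.34 for gamma protocadherins. Under the replicate block Cdh4 was 0.44, Pcdh7 1.18, Cdh1 4.39, Cdh22 -0.44, Cdh23 3.63, Cdh26 3.32 and Pcdh18 2.29, each of the opposite sign. With limma-voom Cdh4 was 1.93, Cdh23 1.70, Pcdh11x 0.41, Pcdh18 1.27 and Pcdha7 0.25, also reversed. The causes were not tested.

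With 1 library left out, both signs occurred for Cdh2 (-0.23 to 0.69), Cdh4 (-2.06 to 3.56), Pcdh7 (-1.24 to 0.21), Pcdh1 (-1.27 to 0.84), Cdh1 (-1.77 to 0.23), Cdh10 (-6.06 to 0.10), Cdh17 (-0.16 to 2.01), Cdh19 (-3.67 to 7.95), Cdh23 (-1.31 to 2.42), Cdh24 (-0.11 to 0.57), Pcdh10 (-2.34 to 3.87), Pcdh11x (-2.88 to 2.76), Pcdh17 (-0.19 to 1.09), Pcdha7 (-6.38 to 7.42), Pcdhb16 (-3.50 to 1.61), Pcdhb17 (-3.24 to 2.02) and Pcdhb2 (-7.18 to 3.14). Precision is limited by how far the libraries spread, and for members under 1 CPM counting does too.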
